A study of Mus musculus with 15 samples.

Results

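NRASD12 in addition to tetracycline-driven BCL2 was examined by setting 3 HR-MDS arrays against 3 tethBCL2 arrays, which are 6 of the 15 arrays of the series. HR-MDS mice 8111, 8019 and 8398 carried MRP8NRASD12 and tethBCL-2 together (genotype label NRAS-tBCL2 double transgenic), and tethBCL2 mice 7758, 7465 and 7466 carried tethBCL-2 alone (tBCL2 transgenic). All were FVB/N mice bred from hemizygote founders, so the human BCL2 transgene, switched on by a tetracycline transactivator under the MMTV long terminal repeat, was shared by both groups, and only HR-MDS mice had the mutant NRAS transgene under the MRP8 promoter. HR-MDS spleens were taken at day 80, the age of the tethBCL2 mice was not given in the sources used here, and mice of the study were killed when moribund or on veterinary advice. The disease field of the labels reads AML for every array, founders included, so the groups rest on the genotype. RNA came from spleen mononuclear cells that were enriched for Sca1 with magnetic beads, with 1 Affymetrix Mouse Exon 1.0 ST array for each numbered mouse.

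The genes were all those with a probe set of their own. Of 23332 probe sets in the table, 14996 carried 1 gene symbol, and where a gene had several the brightest on average was kept, which gave 14860 genes. Values are log2 expression as deposited, and a difference of 1 is a 2-fold change. Within a sentence the arrays stand in the order 8111, 8019 and 8398 for HR-MDS and 7758, 7465 and 7466 for tethBCL2.

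NRAS is a small GTPase that passes signals from growth factor receptors to the MAP kinases, and the D12 form stays in its active state. BCL2 holds back the mitochondrial route of cell death. The MRP8 promoter is that of the S100A8 gene, active in neutrophils, monocytes and their precursors. The study reports expression of both transgenes in the Sca1+ compartment as well, the level of stem cells. Sca1 is carried by stem and progenitor cells and also by many lymphocytes of the spleen. The spleen of the mouse makes blood cells in adult life, and its red pulp holds macrophages that take up old red cells and recycle their iron.

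The arrays were first compared by their medians and by their correlation within each group. The array medians over all probe sets lay between 6.77 and 6.80 in HR-MDS and between 6.76 and 6.82 in tethBCL2. Over the 14860 genes tested, however, the medians were higher in HR-MDS, at 6.91, 6.96 and 6.88 against 6.73, 6.73 and 6.76 in tethBCL2. Correlated over genes with the other arrays of its group, an array averaged 0.991, 0.989 and 0.987 in HR-MDS and 0.993 to 0.994 in tethBCL2, with HR-MDS 8398 the lowest. Both transgenes are human, and the mouse genes Nras (difference 0.02) and Bcl2 (0.01) say nothing about them. Ly6a, which encodes Sca1, had no probe set of its own here, so enrichment for Sca1 could not be compared between the groups. Ly6e, another gene of the Ly6 family, was at 12.96, 12.88 and 13.03 in HR-MDS against 13.002, 13.01 and 13.06 in tethBCL2, which does not measure Sca1. The Y-linked gene Eif2s3y was at 9.99, 9.78 and 10.11 in HR-MDS and at 10.31, 10.05 and 10.30 in tethBCL2, high in all 6 mice. Lymphocyte genes were high in both groups. The median over 16 measured B cell genes was 11.30, 11.22 and 11.18 in HR-MDS against 11.52, 11.50 and 11.42 in tethBCL2, and over 18 measured T cell genes it was 9.66, 9.52 and 9.75 in HR-MDS against 9.91, 9.58 and 9.89 in tethBCL2. In such bulk samples, fewer cells of a type and less RNA per cell cannot be told apart.

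Addition of NRASD12 went with higher expression of myeloid, progenitor, cell division and red pulp macrophage genes, and with few lower genes. Compared to tethBCL2, 67 genes passed in HR-MDS at an adjusted p under 0.05 (limma, 0.451% of the genes tested), of which 63 rose (0.424%) and 4 fell (0.0269%), and 53 differed at least 2-fold. The 12 risen genes of neutrophil granules leave 51 other risen genes. All 67 genes were without overlap between the groups, as were 26.1% of all genes tested. The excess of rises depends in part on the scaling. As deposited, 94% of the genes past the threshold were higher in HR-MDS, and with each array centred on its median over these genes 106 genes passed, of which 62.3% were higher, while the median difference over all genes was 0.04 as deposited and −0.14 once centred. Without an adjustment, 1248 genes were higher (8.4%) and 432 were lower (2.91%) at a p under 0.05. All HR-MDS arrays lay above all tethBCL2 arrays for 16.6% of the genes tested and below them for 9.53%. The counts within lists given below are to be read beside these shares.

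Few of these calls stood without 1 of the arrays. Only Cd163, Lcn2, Ltf, Ngp, S100a8 and S100a9 passed with any 1 of the 6 arrays left out, and 57 of the 67 passed in none of the fits without 8111, 8019, 7758, 7465 or 7466. Those fits gave 6 to 10 genes each, against 187 without HR-MDS 8398, among them 64 of the 67. The gene differences below are thus given with every array.

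**Figure D1:**
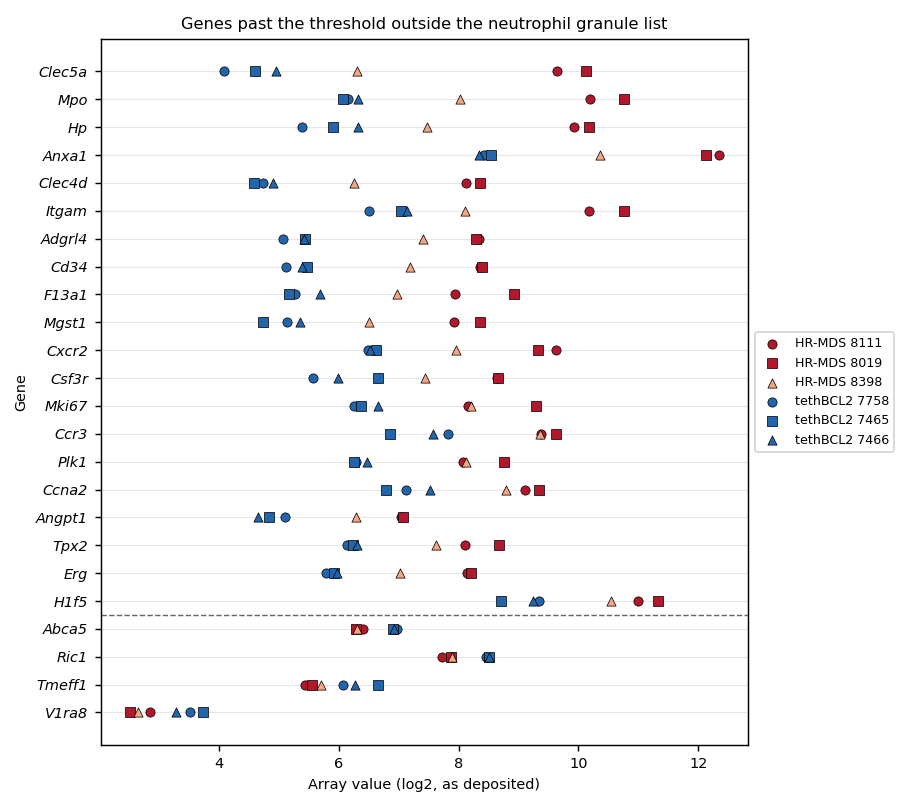
Log2 values as deposited (x axis) of the 20 genes with the largest rise outside the neutrophil granule list, above the dashed line, and of the 4 genes that fell, below it, with 1 point for each array. HR-MDS 8398 (pale triangles) lay between the other HR-MDS arrays and the tethBCL2 arrays for most of the upper genes, as for Clec5a at 6.30, and beside the other HR-MDS arrays for Ccr3 at 9.35 and for the 4 lower genes.

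Outside the late neutrophil granules, the largest rises were those of Clec5a and Mpo, a myeloid surface receptor gene and a primary granule gene. Clec5a, a C-type lectin receptor of neutrophils and monocytes, was at 9.64, 10.12 and 6.30 in HR-MDS against 4.08, 4.60 and 4.95 in tethBCL2. It rose by 4.15 (standard error 0.78, adjusted p = 0.0381), or 17.7-fold, and every HR-MDS array lay above every tethBCL2 array, though 8398 stood nearer to tethBCL2 than to its own group. Clec4d, another myeloid lectin, was at 8.13, 8.35 and 6.25 in HR-MDS against 4.75, 4.59 and 4.92 in tethBCL2, a rise of 2.82 (standard error 0.44, adjusted p = 0.0203). Here too 8398 was the lowest of its group and above all tethBCL2 arrays. Of 13 measured lectin genes these 2 rose and 0 fell, and the median difference over the list was 0.82, beside 0.04 over all genes tested.

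Mpo encodes myeloperoxidase of the primary granules, which form in promyelocytes. It was at 10.20, 10.76 and 8.02 in HR-MDS against 6.15, 6.07 and 6.33 in tethBCL2 and rose by 3.47 (standard error 0.56, adjusted p = 0.0203). Of the 8 measured primary granule genes it was the only one past the threshold. The serine protease genes Ctsg and Prtn3 were at 3.11 (adjusted p = 0.0538) and 2.66 (adjusted p = 0.068), and 7 of the 8 were higher at an unadjusted p under 0.05. The list had a median difference of 2.21, and on single arrays its median above the tethBCL2 mean was 2.55 in 8111, 3.14 in 8019 and 1.02 in 8398.

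The receptors that call neutrophils out of the marrow and into tissue rose together with these genes. Cxcr2, the receptor of the neutrophil chemokines, was at 9.62, 9.32 and 7.96 in HR-MDS against 6.50, 6.63 and 6.52 in tethBCL2, a rise of 2.42 (standard error 0.38, adjusted p = 0.0203). Csf3r, the receptor of granulocyte colony-stimulating factor, was at 8.65, 8.65 and 7.44 in HR-MDS against 5.58, 6.66 and 5.99 in tethBCL2, and its rise was 2.17 (standard error 0.43, adjusted p = 0.0432). In both, 8398 was about midway between the groups. They are the 2 genes past the threshold among 12 measured chemotactic and growth factor receptors of myeloid cells, 8 of which were higher at an unadjusted p under 0.05, with a median of 0.85.

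Itgam, the alpha chain of the myeloid integrin CD11b, was at 10.17, 10.76 and 8.11 in HR-MDS against 6.50, 7.04 and 7.14 in tethBCL2 and rose by 2.78 (standard error 0.53, adjusted p = 0.0395). The inhibitory receptor genes Siglece and Sirpa were the 2 risen among 15 measured genes of paired myeloid receptors, by 1.84 (adjusted p = 0.0307) and 1.12 (adjusted p = 0.0375). Siglece was even within its group, at 8.09, 8.51 and 8.11 in HR-MDS against 6.16, 6.36 and 6.68 in tethBCL2. For Sirpa the HR-MDS values were 10.53, 10.84 and 10.19, against 9.41, 9.37 and 9.42 in tethBCL2. Fcer1g, the signalling chain shared by many of these receptors, was at 1.55 (adjusted p = 0.0955), and none of 8 measured Fc gamma receptor genes passed in limma, with 4 higher at an unadjusted p under 0.05.

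The promoters of 3 of these receptor genes are shown because GAGGAA, a short form of the binding site of the myeloid factor PU.1, was matched in them more than once. The sequences are the bases before the gene start from RefSeq (GRCm38.p6), 5′ to 3′ on the strand of the gene, and capitals mark GAGGAA or its complement TTCCTC. They lie at chr6:40585806-40585905 (minus strand) for Clec5a, chr7:128062540-128062639 (plus strand) for Itgam and chr7:43660162-43660261 (minus strand) for Siglece.
Clec5a: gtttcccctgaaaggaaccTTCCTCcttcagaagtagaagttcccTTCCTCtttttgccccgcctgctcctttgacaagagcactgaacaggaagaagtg
Itgam: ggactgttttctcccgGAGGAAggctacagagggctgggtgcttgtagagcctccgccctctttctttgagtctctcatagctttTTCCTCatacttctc
Siglece: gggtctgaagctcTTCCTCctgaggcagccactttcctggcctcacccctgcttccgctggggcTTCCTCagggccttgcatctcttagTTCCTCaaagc
On either strand, GAGGAA was found within 250 bases before the start in 25 of the 48 risen genes that had a promoter sequence (52.1%), in 25.8% of the 11894 genes tested that had one and in 25.9% of all 27025 promoters. Among the risen genes in neither the granule nor the mitosis list it was found in 19 of 33. A match is a match of letters and was not tested as a site.

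Other risen genes of this kind are known from neutrophils and monocytes. Hp, which encodes the haemoglobin-binding protein haptoglobin, was at 9.93, 10.18 and 7.48 in HR-MDS against 5.39, 5.91 and 6.32 in tethBCL2, a rise of 3.32 (standard error 0.64, adjusted p = 0.0404). Anxa1, which encodes the phospholipid-binding annexin A1, was at 12.34, 12.12 and 10.36 in HR-MDS against 8.42, 8.55 and 8.35 in tethBCL2 and rose by 3.17 (standard error 0.43, adjusted p = 0.00921). The tethBCL2 arrays of Anxa1 were close together, and 8398 was midway. F13a1, the transglutaminase of factor XIII made by monocytes, was at 7.94, 8.93 and 6.98 in HR-MDS against 5.27, 5.17 and 5.69 in tethBCL2 (difference 2.58, adjusted p = 0.0375), the single risen gene of 12 measured monocyte and macrophage genes. Mgst1, of the microsomal glutathione transferases, was at 7.93, 8.36 and 6.51 in HR-MDS against 5.14, 4.73 and 5.36 in tethBCL2 (difference 2.52, adjusted p = 0.0381). For all 4 genes 8398 was the lowest HR-MDS array and still above every tethBCL2 array.

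The late neutrophil granule genes differed widely among the HR-MDS arrays. Ngp, the neutrophilic granule protein, was at 12.61, 12.71 and 10.02 in HR-MDS against 6.81, 5.40 and 6.51 in tethBCL2. Mmp8, the neutrophil collagenase, was at 9.13, 9.17 and 5.88 in HR-MDS against 4.25, 3.89 and 4.08 in tethBCL2. Both lay above tethBCL2 in every HR-MDS array, but 8398 had gone 58.8% of the way from the tethBCL2 mean to the mean of 8111 and 8019 for Ngp and 35.7% of the way for Mmp8. Over the 17 measured genes, of which 12 rose, the median above the tethBCL2 mean was 4.55 in 8111, 5.06 in 8019 and 1.89 in 8398. The 5 that did not pass were Pglyrp1, Padi4, Wfdc21, Itgb2l and Bst1, at 1.03 to 1.70. Summed on the linear scale, the 17 genes came to 41600, 47800 and 7390 in HR-MDS against 1730, 1360 and 1680 in tethBCL2.
The promoter of Ngp, at chr9:110419608-110419807 on the plus strand, is shown for its matches to TTGCNNAA, a loose form of the C/EBP site, marked in capitals on either strand.
Ngp: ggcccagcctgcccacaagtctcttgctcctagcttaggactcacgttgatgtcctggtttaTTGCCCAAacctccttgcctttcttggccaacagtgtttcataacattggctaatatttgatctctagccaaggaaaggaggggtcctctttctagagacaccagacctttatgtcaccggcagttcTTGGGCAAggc
The matches begin 138 and 11 bases before the gene start. Such a match was found in 7 of 11 risen granule genes with a promoter sequence, in 12 of the 48 risen genes with one, in 9.92% of the genes tested and in 10.8% of all promoters.

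Progenitor genes rose as well. Cd34, the sialomucin by which progenitors are commonly recognised, was at 8.36, 8.39 and 7.19 in HR-MDS against 5.13, 5.48 and 5.39 in tethBCL2, a rise of 2.64 (standard error 0.41, adjusted p = 0.0203) or 6.25-fold. Erg, a transcription factor of stem cells and endothelium, was at 8.15, 8.21 and 7.02 in HR-MDS against 5.78, 5.92 and 5.98 in tethBCL2 and rose by 1.90 (standard error 0.31, adjusted p = 0.0203). Angpt1, the ligand of the receptor TIE2, was at 7.03, 7.08 and 6.29 in HR-MDS against 5.11, 4.84 and 4.66 in tethBCL2, with a rise of 1.93 (standard error 0.31, adjusted p = 0.0203). In all 3, 8111 and 8019 were nearly equal and 8398 lay below them, above every tethBCL2 array. Adgrl4, an adhesion receptor first described in endothelium, had the same order, at 8.34, 8.30 and 7.41 in HR-MDS against 5.08, 5.44 and 5.43 in tethBCL2 (difference 2.70, adjusted p = 0.0203).

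Among the 23 stem and progenitor genes measured there were 3 rises and 0 falls, at a median of 0.46. The 3 are Cd34, Angpt1 and Erg. Another 12 were higher at an unadjusted p under 0.05, which makes 15 in all, and 18 of the 23 lay above tethBCL2 in every array, as did 16.6% of all genes tested. The mucin gene Muc13 was at 1.68 (adjusted p = 0.0502), the stem cell factor receptor gene Kit at 1.20 (adjusted p = 0.101) and the homeobox gene Meis1 at 1.17 (adjusted p = 0.133). Kit was at 8.58, 8.49 and 7.58 in HR-MDS against 6.78, 7.46 and 6.81 in tethBCL2. Myc lay below tethBCL2 in every HR-MDS array, at 11.85, 11.85 and 11.49 in HR-MDS against 12.18, 12.03 and 12.22 in tethBCL2 (difference −0.41, adjusted p = 0.493). Of 20 measured endothelial and stromal genes none passed in limma, and 4 were higher at an unadjusted p under 0.05. In every array 9 lay above and 2 below tethBCL2, beside 16.6% and 9.53% of all genes tested, and the median difference was 0.14. Their summed linear level was 2140 to 2220 in HR-MDS against 2250 to 2430 in tethBCL2.

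Genes of the mitosis list made up 7 of the 51 risen genes outside the granule list. Cdc25c, which the study counts among cell cycle genes, also rose but is in no list here. It was at 6.16, 6.44 and 5.83 in HR-MDS against 5.02, 5.14 and 4.97 in tethBCL2 (difference 1.10, adjusted p = 0.0375). Mki67, which encodes the proliferation antigen Ki-67, was at 8.16, 9.29 and 8.21 in HR-MDS against 6.26, 6.37 and 6.66 in tethBCL2, a rise of 2.12 (standard error 0.40, adjusted p = 0.0395) or 4.36-fold. Plk1, a kinase of mitotic entry and exit, was at 8.08, 8.76 and 8.12 in HR-MDS against 6.28, 6.25 and 6.47 in tethBCL2 and rose by 1.98 (standard error 0.37, adjusted p = 0.0375). Unlike the granule genes, both had 8398 level with 8111, and 8019 was the highest. Ccna2, cyclin A2, was at 9.11, 9.34 and 8.79 in HR-MDS against 7.13, 6.79 and 7.52 in tethBCL2 (difference 1.93, adjusted p = 0.0336). Tpx2, a factor of spindle assembly, was at 8.11, 8.67 and 7.63 in HR-MDS against 6.14, 6.24 and 6.30 in tethBCL2 (difference 1.91, adjusted p = 0.0375). These 4 were clear of tethBCL2 in every array.

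Of 53 measured mitosis genes, 7 rose, 0 fell and 46 did not pass, with a median difference of 1.11. The other 3 risen genes were Bub1b of the spindle checkpoint (1.82), the cyclin gene Ccnb2 (1.69) and the kinesin gene Kif20a (1.36). At an unadjusted p under 0.05, 45 of the 53 were higher, beside 8.4% of all genes tested, and 0 were lower. In every array 46 lay above tethBCL2, as did 16.6% of all genes tested. The median above the tethBCL2 mean was 1.04 in 8111, 1.45 in 8019 and 0.69 in 8398. Without 8398, 13 of the 53 passed, and without any 1 of the other 5 arrays none of the 7 did.
Among 46 measured genes of DNA replication and nucleotide supply none passed in limma, and the median was 0.52. Before adjustment 24 were higher, beside 8.4% of all genes tested, and 0 were lower. In every array 37 lay above tethBCL2, beside 16.6% of all genes tested. The origin licensing gene Cdc6 was at 7.39, 7.51 and 7.15 in HR-MDS against 6.09, 5.99 and 6.31 in tethBCL2 (difference 1.22, adjusted p = 0.055), and Uhrf1, which keeps DNA methylation through replication, was at 1.41 (adjusted p = 0.068). For 34 measured genes of DNA damage response and repair the median was 0.28, and none passed in limma, with 10 higher and 1 lower before adjustment. The linker histone gene H1f5, one of a family of near-identical genes, rose, at 10.996, 11.32 and 10.54 in HR-MDS against 9.34, 8.71 and 9.24 in tethBCL2 (difference 1.85, adjusted p = 0.0283).

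The promoters of Mki67 and Ccnb2 are shown since genes of mitosis are known for a pair of promoter elements, the CCAAT box (letters CCAAT) and the cell cycle homology region (letters TTTGAA). Capitals mark CCAAT or its complement ATTGG and, in Mki67, TTTGAA. They lie at chr7:135716380-135716579 for Mki67 and chr9:70421555-70421654 for Ccnb2, both on the minus strand.
Mki67: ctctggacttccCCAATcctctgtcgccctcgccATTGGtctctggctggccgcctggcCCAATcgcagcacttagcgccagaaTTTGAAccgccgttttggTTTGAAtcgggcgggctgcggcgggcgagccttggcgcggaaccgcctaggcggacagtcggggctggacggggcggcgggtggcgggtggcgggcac
Ccnb2: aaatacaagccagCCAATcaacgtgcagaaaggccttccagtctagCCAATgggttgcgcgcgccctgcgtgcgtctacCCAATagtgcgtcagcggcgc
The TTTGAA matches of Mki67 begin 116 and 98 bases before its start. CCAAT on either strand was found in 31 of the 45 measured mitosis genes with a promoter sequence (68.9%), against 39.7% of the genes tested and 37.5% of all promoters. TTTGAA was found in 19 of the 45 (42.2%), against 15.2% of the genes tested and 18.3% of all promoters. Of the 7 risen mitosis genes 4 had a promoter sequence, all 4 with CCAAT and 2 with TTTGAA.

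Of the macrophage genes of the red pulp, the 4 that rose had HR-MDS 8398 near the other HR-MDS arrays. Cd163, the scavenger receptor for haemoglobin bound to haptoglobin, was at 6.97, 7.22 and 6.94 in HR-MDS against 5.91, 5.90 and 6.06 in tethBCL2. It rose by 1.09 (standard error 0.11, adjusted p = 0.000571), and its adjusted p stayed at or under 0.00619 when any 1 of the 6 arrays was left out. The HR-MDS arrays were close to each other and all well above the tethBCL2 arrays. Hmox1, the heme oxygenase that opens the ring of heme, was at 10.50, 10.89 and 10.73 in HR-MDS against 8.89, 8.86 and 9.56 in tethBCL2, a rise of 1.60 (standard error 0.26, adjusted p = 0.0203). Fcna, the serum lectin ficolin A, was at 9.36, 9.73 and 9.27 in HR-MDS against 7.77, 7.45 and 8.05 in tethBCL2 and rose by 1.70 (standard error 0.25, adjusted p = 0.0148). Axl, a receptor for the clearance of dead cells, was at 9.76, 10.34 and 9.54 in HR-MDS against 8.45, 8.004 and 8.46 in tethBCL2 (difference 1.58, adjusted p = 0.0375). In these 3 genes 8398 lay at or near the level of 8111.

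Of 20 measured red pulp macrophage and iron recycling genes, 4 rose, 0 fell and 16 did not pass, at a median of 1.43. At an unadjusted p under 0.05, 19 were higher, beside 8.4% of all genes tested. In every array 19 lay above tethBCL2, beside 16.6% of all genes tested, Vsig4 being the exception. The iron exporter gene Slc40a1 was at 10.94, 11.34 and 10.98 in HR-MDS against 9.51, 9.09 and 9.85 in tethBCL2 (difference 1.61, adjusted p = 0.0553). Cd5l, a protein secreted by tissue macrophages, was at 8.83, 9.73 and 8.83 in HR-MDS against 6.77, 6.77 and 7.75 in tethBCL2 (difference 2.03, adjusted p = 0.0701). Spic, the transcription factor that red pulp macrophages need, was at 8.94, 9.33 and 8.82 in HR-MDS against 8.27, 8.01 and 8.37 in tethBCL2 (difference 0.81, adjusted p = 0.24). Summed on the linear scale, the 20 genes came to 11700, 16400 and 11500 in HR-MDS against 4580, 3950 and 5890 in tethBCL2. The apolipoprotein gene Apoe, made by macrophages and in no list here, rose by 1.39 (adjusted p = 0.0395). Slc40a1, Cd5l, Spic, Apoe and, named next, Timd4 were picked after their values were seen. Other members had 8398 about midway, as Timd4, a receptor for dead cells, at 7.88, 8.14 and 7.46 in HR-MDS against 7.07, 6.80 and 7.05 in tethBCL2. Without 8398, 7 of the 20 passed, and without any 1 of the other 5 arrays Cd163 did, with Fcna or Hmox1 beside it in 1 fit each.

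**Figure D2:**
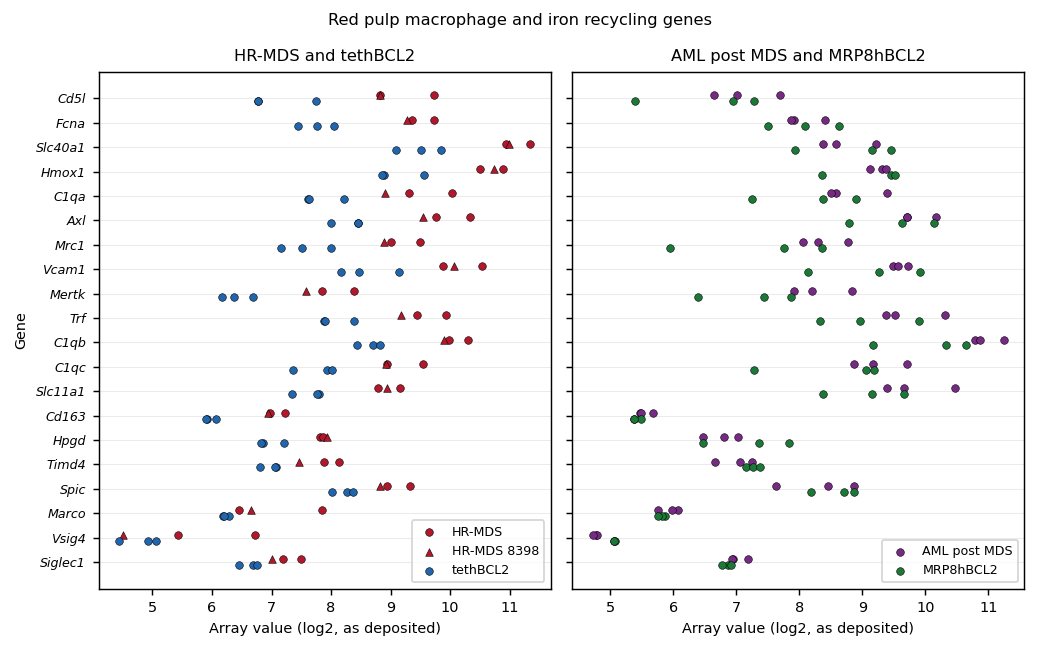
Log2 values as deposited (x axis) of the 20 red pulp macrophage and iron recycling genes in HR-MDS and tethBCL2 arrays (left) and in AML post MDS and MRP8hBCL2 arrays (right), with 1 point per array. HR-MDS arrays lay above tethBCL2 arrays for 19 genes, whereas AML post MDS and MRP8hBCL2 arrays overlapped for most of them, as for Cd163 at 5.47 to 5.67 against 5.37 to 5.49.

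Genes of other cell types moved in smaller number. Ccr3, the eotaxin receptor of eosinophils and basophils, was at 9.38, 9.63 and 9.35 in HR-MDS against 7.82, 6.86 and 7.57 in tethBCL2 and rose by 2.04 (standard error 0.38, adjusted p = 0.0375), with the HR-MDS arrays close together. It was the only one of 17 measured basophil, mast cell and eosinophil genes to pass. The list's summed linear level was 3220, 3600 and 1860 in HR-MDS against 1250 to 1290 in tethBCL2. Il5ra, which encodes the interleukin 5 receptor of eosinophils and some B cells, lay lower in every HR-MDS array, at 7.08, 6.71 and 6.80 in HR-MDS against 7.94, 7.60 and 7.61 in tethBCL2 (difference −0.86, adjusted p = 0.141).

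Fkbp11, an isomerase of the secretory pathway that plasma cells express, was at 7.39, 7.45 and 7.57 in HR-MDS against 6.49, 6.41 and 6.53 in tethBCL2, a rise of 0.99 (standard error 0.14, adjusted p = 0.0105). Of 15 measured plasma cell genes it alone passed, and the median was 0.99. At an unadjusted p under 0.05, 11 were higher and 1 was lower, beside 8.4% and 2.91% of all genes tested. Mzb1, a chaperone of antibody-secreting cells, was at 11.53, 11.44 and 11.45 in HR-MDS against 10.15, 10.14 and 10.09 in tethBCL2 (difference 1.35, adjusted p = 0.07 by limma), and it was 1 of the 5 genes that passed the methods' t-test once adjusted (adjusted p = 0.0229). The arrays of each group were nearly equal for Mzb1, and no HR-MDS array stood apart. Irf4 ran the other way in every array, at 10.85, 10.71 and 10.42 in HR-MDS against 11.17, 11.18 and 11.19 in tethBCL2 (difference −0.52, adjusted p = 0.294). Of 42 measured genes of protein folding and secretion none passed in limma, 19 were higher and 2 were lower before adjustment, and the median above the tethBCL2 mean was 0.38 in 8111, 0.31 in 8019 and 0.41 in 8398. Mzb1 and Irf4 were picked after their values were seen.

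Lymphocyte and antigen presentation genes had medians below 0, and few of them differed on their own. Of 12 measured MHC class II genes, 8 lay below tethBCL2 in every HR-MDS array, as did 9.53% of all genes tested, with a median of −0.19 and 2 lower at an unadjusted p under 0.05. Of 16 measured B cell genes, 10 lay below tethBCL2 in every array, with a median of −0.20, and before adjustment 1 was higher and 2 were lower. In the T cell list the median was −0.19 and 1 of 18 genes was lower at an unadjusted p under 0.05. No gene of these 3 lists passed in limma, with or without 8398. Among 16 measured cytotoxic and NK cell genes, Fasl, the ligand of the death receptor FAS, was at 8.05, 7.59 and 8.06 in HR-MDS against 9.49, 8.62 and 8.99 in tethBCL2 (difference −1.13, adjusted p = 0.0905). Xcl1, a chemokine of activated T and NK cells, was at 7.14, 6.72 and 7.64 in HR-MDS against 8.33, 8.20 and 8.31 in tethBCL2 (difference −1.11, adjusted p = 0.0602), and it passed without 8398 (−1.35, adjusted p = 0.0119). Both had all HR-MDS arrays below all tethBCL2 arrays. Of 24 measured immediate early genes 11 lay below tethBCL2 in every array, with a median of −0.28, and none passed in limma (before adjustment 1 was higher and 2 were lower).

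**Figure D3:**
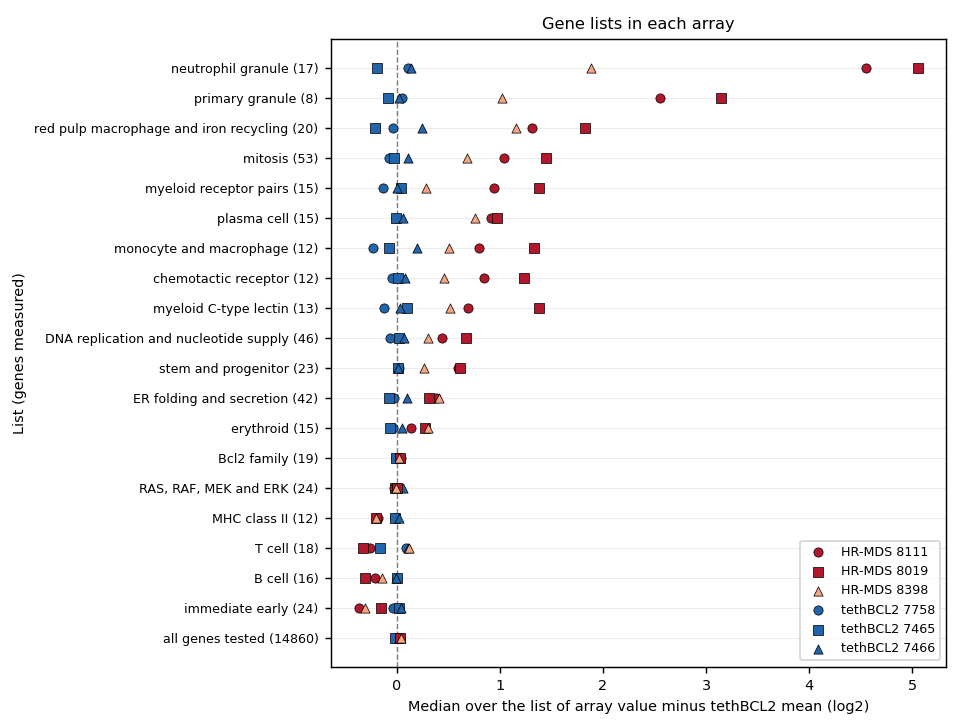
Median over each gene list of the array value minus the tethBCL2 mean of the gene (x axis, log2), for 19 lists and all genes tested, with 1 point per array. HR-MDS 8398 lay far below 8111 and 8019 for the neutrophil granule list (1.89, against 4.55 and 5.06) and nearer to them for the lists of red pulp macrophages (1.16, against 1.31 and 1.82) and of protein folding (0.41, against 0.38 and 0.31).

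No measured gene passed in the lists drawn up for pathways that the transgenes feed into. Only RNA was measured, so the activity of the encoded proteins was not tested. Of 24 measured genes of RAS, RAF, MEK and ERK none passed in limma and 3 were higher at an unadjusted p under 0.05, with a range of −0.22 to 0.78. Mras, a relative of NRAS, was at 5.79, 6.01 and 6.06 in HR-MDS against 5.69, 5.35 and 5.47 in tethBCL2 (difference 0.45, adjusted p = 0.146). Of 22 measured feedback and output genes of ERK none passed in limma, and 3 were higher and 1 was lower before adjustment. In every array 5 lay above and 4 below tethBCL2, beside 16.6% and 9.53% of all genes tested. The 22 genes ranged from Egr3, a transcription factor gene, at −0.91 (adjusted p = 0.302) to the stress response gene Ier3 at 1.42 (adjusted p = 0.19). The feedback inhibitor gene Spred1 was at 0.63 (adjusted p = 0.158). Of 19 measured genes of the Bcl2 family 1 was higher at an unadjusted p under 0.05, the survival gene Mcl1 at 11.22, 11.19 and 11.27 in HR-MDS against 10.99, 11.01 and 11.07 in tethBCL2 (difference 0.20, adjusted p = 0.379). The list ranged between −0.37 and 0.35, and none of it passed in limma. Among 21 measured p53 target genes none passed, and none was past an unadjusted p of 0.05 in limma.

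The study named genes as differing between HR-MDS and tethBCL2 mice where they changed in opposite directions, each against normal FVB/N mice. Its cutoff was a p-value for which no adjustment is described. Here HR-MDS was compared directly with tethBCL2 at an adjusted p, which is a different test. Of 15 such genes listed, 9 were measured and Angpt1 alone passed. Before adjustment 4 of the 9 were higher, Angpt1 included, and 1 was lower. The list came from these same arrays, so its direction is no independent evidence. The study also reports qRT-PCR of Angpt1 and Abcb4 in a different set of HR-MDS mice, which was not used here. Rab5if, at 10.69, 10.76 and 10.39 in HR-MDS against 10.02, 9.87 and 9.95 in tethBCL2 (difference 0.67, adjusted p = 0.132), Tram2 (0.90, adjusted p = 0.137) and Rgl1 (0.58, adjusted p = 0.176) lay above tethBCL2 in every array, as did Mms22l (0.39, adjusted p = 0.615). Baiap2l1 was at 7.09, 7.07 and 6.73 in HR-MDS against 7.53, 7.68 and 7.62 in tethBCL2 (difference −0.65, adjusted p = 0.411), and Rfx5 at −0.18 (adjusted p = 0.723) also lay below in every array. Socs4 (−0.35) and Lrrc41 (0.02) had overlapping groups, and Lrrc41 falls below 0 after quantile normalization or centring.

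A further set of risen genes belonged to no list or to lists of enzymes and transporters, and 24 of the 67 genes were in no list. Npl, the lyase that breaks down sialic acid, was at 8.48, 8.72 and 8.69 in HR-MDS against 7.08, 6.69 and 6.81 in tethBCL2 and rose by 1.77 (standard error 0.26, adjusted p = 0.015). Endou, an endoribonuclease, was at 6.68, 6.94 and 6.74 in HR-MDS against 5.13, 5.44 and 5.55 in tethBCL2 (difference 1.41, adjusted p = 0.0203). In both, the 3 HR-MDS arrays were alike. The transporter gene Abcc3 was at 8.15, 8.65 and 8.14 in HR-MDS against 6.84, 6.70 and 7.03 in tethBCL2 (difference 1.46, adjusted p = 0.0381). Col14a1, which encodes a collagen, was at 7.08, 7.23 and 6.09 in HR-MDS against 5.40, 5.43 and 5.45 in tethBCL2 (difference 1.37, adjusted p = 0.0203), the tethBCL2 arrays being nearly equal. In Abcc3 and Col14a1 the groups were clear of each other, with 8398 the lowest of HR-MDS. Tpi1, a glycolytic enzyme, rose by 1.06 (adjusted p = 0.0375), the lysosomal protease gene Ctsd by 0.97 (adjusted p = 0.0375) and Lpl, lipoprotein lipase, by 1.01 (adjusted p = 0.0404). H13, the protease that clears signal peptides, was at 10.77, 10.70 and 10.76 in HR-MDS against 10.08, 10.04 and 10.09 in tethBCL2 (difference 0.67, adjusted p = 0.0307), and it is the 1 gene of the 67 that also passed the methods' t-test once adjusted (5 genes did over all genes).

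The 4 genes that fell did so by less than 1 log2 unit. Abca5, a transporter of the ABC family, was at 6.41, 6.30 and 6.31 in HR-MDS against 6.98, 6.90 and 6.92 in tethBCL2 (difference −0.60, adjusted p = 0.0375). Ric1, part of an exchange factor for the trafficking GTPase Rab6, was at 7.73, 7.88 and 7.89 in HR-MDS against 8.46, 8.51 and 8.51 in tethBCL2 (difference −0.66, adjusted p = 0.0444). Tmeff1, a membrane protein with follistatin-like domains, was at 5.43, 5.56 and 5.71 in HR-MDS against 6.07, 6.66 and 6.27 in tethBCL2 (difference −0.76, adjusted p = 0.0375). In each of these the HR-MDS arrays were close together and all below tethBCL2. V1ra8, of the large and closely related family of vomeronasal receptors, was at 2.86, 2.52 and 2.65 in HR-MDS against 3.52, 3.73 and 3.29 in tethBCL2 (difference −0.84, adjusted p = 0.0381), near the bottom of the scale in all arrays. Abca5 (adjusted p = 0.051) and V1ra8 (adjusted p = 0.052) did not pass without 8398.

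Among the 63 risen genes, how far HR-MDS 8398 went with the other HR-MDS arrays differed between groups of genes. Its place was taken as a percentage, with the tethBCL2 mean at 0 and the mean of 8111 and 8019 at 100. Over the 63 risen genes it had a median of 61.6% and a range of 29.7% to 130%, and 8398 was below both other HR-MDS arrays for 51 of them. It lay under 50% for 17 genes, between 50% and 75% for 25, between 75% and 100% for 15 and at 100% or above for 6. The medians by group were 51.1% for the 12 neutrophil granule genes, 42.9% for the 5 genes of primary granules, lectins and chemotactic receptors, 61.1% for the 3 progenitor genes, 75.4% for the 7 mitosis genes and 85.8% for the 4 red pulp genes. The range was 29.7% to 75.6% for the granule genes and 70.8% to 102% for the red pulp genes. These values describe 1 mouse, and the difference between groups of genes was not tested. The genes were chosen for passing with 8398 included, so their places are not independent of that choice. Over all measured mitosis genes, passed or not, the median above the tethBCL2 mean was 0.69 in 8398, against 1.04 in 8111 and 1.45 in 8019. For all measured red pulp genes it was 1.16, against 1.31 and 1.82, and for all measured granule genes 1.89, against 4.55 and 5.06.

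**Figure D4:**
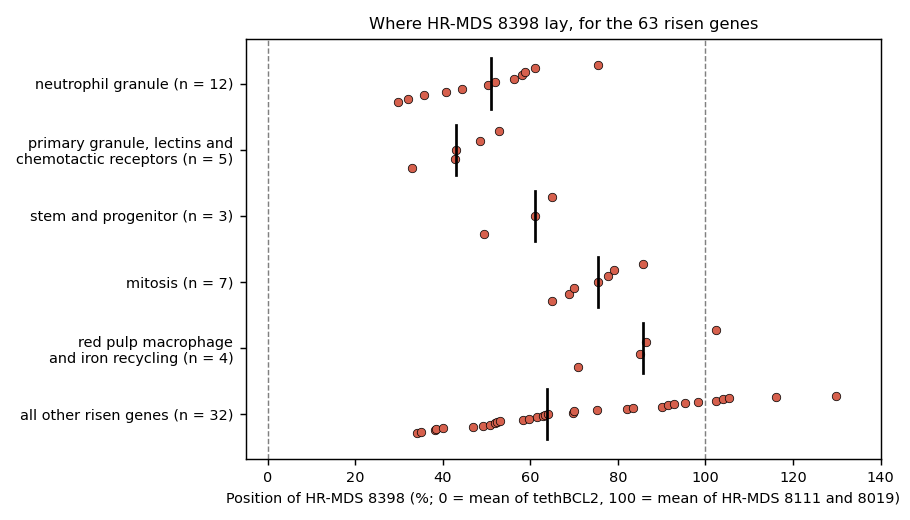
Place of HR-MDS 8398 for the 63 risen genes (x axis, %), where 0 is the tethBCL2 mean and 100 the mean of HR-MDS 8111 and 8019, with 1 point per gene and a black bar at the median of each group. The 12 neutrophil granule genes had a median of 51.1% and the 4 red pulp macrophage genes one of 85.8%. All genes shown were chosen for passing with 8398 included.

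Lowest in place were Camp at 29.7%, Cd177 at 32.1% and Clec5a at 32.9%, all of neutrophils or monocytes, followed by Itgam at 34.0%, the metalloreductase gene Steap4 at 35.1%, Mmp8 at 35.7%, Col14a1 at 38.1%, Hp at 38.3%, Lpl at 40.0% and Mmp9 at 40.7%. Camp, the cathelicidin, was at 10.56, 10.91 and 7.54 in HR-MDS against 6.26, 5.995 and 6.31 in tethBCL2. At the other end, 8398 was at or beyond its own group for Srm, which makes spermidine, at 130%, for Fkbp11 at 116%, Npl at 105%, H13 at 104%, and Hmox1 and the syndecan gene Sdc3 at 102% each. Srm was at 8.19, 8.17 and 8.38 in HR-MDS against 7.41, 7.45 and 7.65 in tethBCL2 (difference 0.74, adjusted p = 0.0416), and without 8398 it did not pass (0.68, adjusted p = 0.074).

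Without HR-MDS 8398, 182 genes rose (1.22% of the genes tested) and 5 fell (0.0336%), and 123 genes passed only then, 120 of them higher. Of the 10 largest of these rises, those of Ctsg and Prtn3 belong to the primary granule list. Il1f9, an interleukin of the IL-1 family, was at 9.92, 10.21 and 6.69 in HR-MDS against 5.51, 4.74 and 4.78 in tethBCL2, a difference of 3.93 (adjusted p = 0.0613) with all arrays and 5.06 (adjusted p = 0.0017) without 8398. Slfn4, a myeloid Schlafen gene, was at 9.84, 10.80 and 6.77 in HR-MDS against 5.56, 5.65 and 5.50 in tethBCL2 (4.75 without 8398). Thbs1, thrombospondin 1, was at 9.58, 10.40 and 6.93 in HR-MDS against 6.10, 6.05 and 6.25 in tethBCL2 (3.86 without 8398). In each, 8111 and 8019 were high and 8398 was above tethBCL2 by much less. The others were Ctsg (3.84), Chil1 (3.80), the fatty acid receptor gene Gpr84 (3.71), Anxa3 (3.61), the neutrophil chemokine gene Cxcl2 (3.52), Prtn3 (3.46) and the histamine-forming enzyme gene Hdc (3.46). The 3 that fell only without 8398 were Xcl1, Irf2bpl (−0.63) and Smndc1 (−0.60). The groups of Irf2bpl overlapped with all arrays, at 7.79, 7.71 and 8.33 in HR-MDS against 8.22, 8.46 and 8.47 in tethBCL2.

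The change was next compared with that in the second model, in which NRASD12 was added to BCL2 under the MRP8 promoter. AML post MDS mice 3622, 3626 and 3518 (day 36) carried both transgenes and MRP8hBCL2 mice 3012, 3386 and 3391 carried BCL2 alone, and these 6 arrays are not shared with the comparison above. Within AML post MDS, the Y-linked gene Kdm5d was at 8.08, 7.60 and 4.08, low in 3518 alone, while HR-MDS and tethBCL2 arrays lay at 8.08 to 8.62, and the part of this in the comparison was not tested. No gene passed for a difference between the changes of the models (0.0%, limma, smallest adjusted p 0.114). At an unadjusted p under 0.05, the signed difference (the change in HR-MDS minus that in AML post MDS) was above 0 for 380 genes (2.56%) and below 0 for 304 (2.05%). By a t-test of the same contrast, with the spread pooled over the groups compared, 838 genes passed without adjustment and 0 did with it. Of the 63 genes that rose in HR-MDS, 59 also had a higher mean in AML post MDS than in MRP8hBCL2. Because these genes were chosen for their change in HR-MDS, that 61 of the 63 risen genes had the larger rise there is not a result.

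Cell division genes had mean changes of similar size in both models, though 1 MRP8hBCL2 array stood apart. Plk1 was at 10.17, 9.73 and 9.77 in AML post MDS against 7.41, 7.77 and 9.23 in MRP8hBCL2, a difference of 1.75 beside 1.98 in the HR-MDS comparison. For the 7 risen mitosis genes MRP8hBCL2 3391 was the highest of its group. Ccna2 was at 8.51, 8.84 and 10.23 in MRP8hBCL2, and Mki67 at 6.33, 6.89 and 8.18. A high founder array lowers the mean change in AML post MDS, and the part of 3391 was not tested. Over the mitosis list the median was 1.33 in AML post MDS and 1.11 in HR-MDS, and none of its 53 genes differed between the models at an unadjusted p under 0.05. Among the 7 risen members the difference between models was −0.07 to 0.72. Apoe was equal in both, at 1.39 and 1.39, and Npl nearly so, at 1.73 in AML post MDS and 1.77 in HR-MDS. That none passed does not show that the models act alike.

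The red pulp macrophage list had a larger median change in HR-MDS than in AML post MDS, though no single gene passed for the difference with all arrays. Cd163 was at 5.47, 5.67 and 5.49 in AML post MDS against 5.38, 5.49 and 5.37 in MRP8hBCL2, and the difference between models was 0.95 (adjusted p = 0.114). Fcna was at 8.40, 7.91 and 7.86 in AML post MDS against 7.51, 8.09 and 8.63 in MRP8hBCL2, with a difference between models of 1.71 (adjusted p = 0.361). For Hmox1 the values were 9.31, 9.12 and 9.37 in AML post MDS against 8.36, 9.46 and 9.52 in MRP8hBCL2, and the difference was 1.45 (adjusted p = 0.607). The AML post MDS and MRP8hBCL2 groups overlapped for all 3. The list median was 0.26 in AML post MDS and 1.43 in HR-MDS. For the difference between models 10 of the 20 genes were higher at an unadjusted p under 0.05, beside 2.56% of all genes tested. The list was chosen with earlier results of these data known, and Cd163, Fcna and Hmox1 for their rise in HR-MDS. That their change was larger there is thus no independent result. Without HR-MDS 8398 Cd163 passed for the difference between models, together with 10 other genes (11 in all, 0.074% of the genes tested), which were Anxa1, Camp, Chil3, Col14a1, Gria2, Lcn2, Ltf, Ngp, S100a8 and S100a9.

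Angpt1 was at 6.10, 5.50 and 6.21 in AML post MDS against 5.88, 5.56 and 6.29 in MRP8hBCL2, a difference of 0.03, and the difference between models was 1.91 (adjusted p = 0.499). Col14a1 was at 5.06, 5.27 and 5.10 in AML post MDS against 5.14, 5.24 and 5.12 in MRP8hBCL2, with a difference between models of 1.39 (adjusted p = 0.415). In both genes the AML post MDS and MRP8hBCL2 arrays overlapped. Granule genes differed in their level in MRP8hBCL2. Ngp was at 12.999, 12.95 and 12.53 in AML post MDS against 12.32, 12.23 and 12.42 in MRP8hBCL2, whereas tethBCL2 arrays lay at 5.40 to 6.81. Mmp9, a gelatinase of neutrophil granules, was at 10.08, 9.85 and 8.82 in AML post MDS against 7.04, 6.19 and 6.67 in MRP8hBCL2, where its lowest array overlapped the tethBCL2 arrays (6.02 to 6.24). Ngp was thus high in MRP8hBCL2 and Mmp9 was not. Cd34 was at 7.53, 7.65 and 9.18 in MRP8hBCL2, above its tethBCL2 values of 5.13 to 5.48. The part of the level in the founder in the difference between models was not tested.

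**Figure D5:**
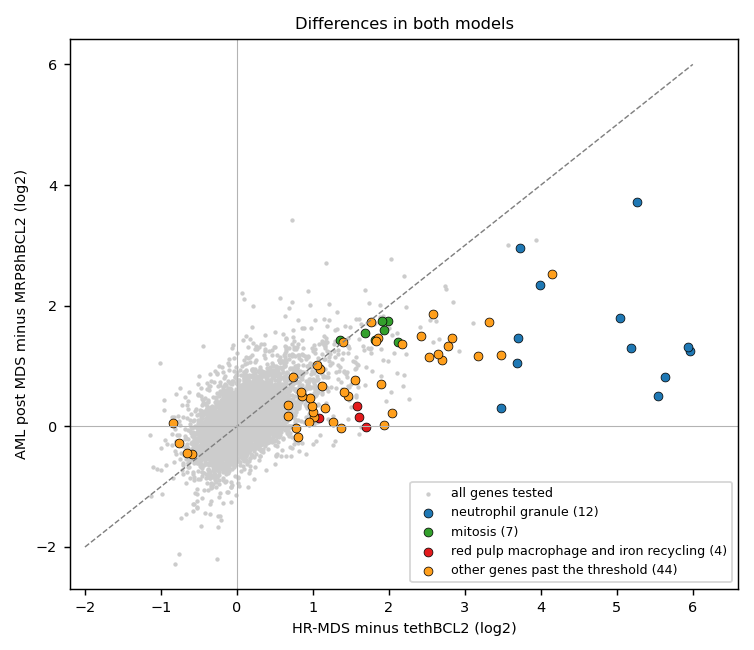
Difference between HR-MDS and tethBCL2 (x axis, log2) and between AML post MDS and MRP8hBCL2 (y axis, log2) for all 14860 genes tested, with the 67 genes past the threshold in the HR-MDS comparison in colour and the dashed line marking equal differences. The 7 mitosis genes lie near that line, as Plk1 at 1.98 and 1.75, and the 4 red pulp macrophage genes lie near 0 on the y axis, as Fcna at 1.70 and −0.02.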

How the data were processed

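RNA of Sca1-enriched spleen cells had been hybridised to exon arrays, 1 per mouse, and 15 arrays in 5 groups of 3 were in the table. The authors deposited log2 expression values per probe set, made with EASANA and FAST DB annotations on the mm9 build named in the submitters' processing notes. The summarization of probes and the scaling between arrays were not given in the sources used here, and the authors' filter on detection above background was not repeated. Of 23332 probe sets, 14996 had 1 gene symbol (updated through 14941 matched Entrez numbers), 1019 had several and 7317 had none. Of genes with more than 1 probe set (135) the one with the highest mean was kept.

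A model of 5 group means over 15 arrays was fitted with limma (3.58.1 in R 4.3.3), with empirical Bayes and Benjamini-Hochberg adjustment over 14860 genes, and every adjusted p in the text is from limma unless the methods' t-test is named. The methods' t-test, an unpaired Student test per gene, was run as an alternative. The difference between models was a contrast of the same fit. For that difference the alternative was a t-test of the contrast with the spread pooled over the groups compared, which the methods do not describe. Tables and figures were made with Python 3.11.15, pandas 2.3.3 and matplotlib 3.10.9. The fit was tested on simulated data. The p-values measure the spread between these mice, and 3 arrays per group limit the precision.

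The genes described in full were every gene that fell, the 20 largest rises outside the granule list, per list up to 4 members past the threshold with the largest difference or else the 2 with the smallest p, genes the study named for this comparison, the 10 lowest and 10 highest places of 8398, the 10 largest changes of either direction found only without 8398, and genes past the threshold that differed between models. Members, genes and the 57 lists (1015 of 1277 listed genes measured) were chosen with earlier results of these data known. A few genes outside the rule were added after their values were seen. Examples are Bub1b, Ccnb2, Kif20a, Cdc25c, Slc40a1, Cd5l, Spic, Timd4, Apoe, Muc13, Myc, Mzb1 and Irf4. Promoters (250 bases before the start) came from RefSeq on GRCm38.p6. The FVB/N arrays of the study were not analysed here.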

Additional observations from a re-analysis of the deposited data

Results flagged for a closer look

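Vstm4, which encodes a membrane protein of the immunoglobulin family, rose in HR-MDS, while its mean in AML post MDS lay below that in MRP8hBCL2. It was at 7.56, 7.84 and 7.54 in HR-MDS against 6.77, 6.68 and 7.08 in tethBCL2, a rise of 0.80 (limma, adjusted p = 0.0375), with every HR-MDS array above every tethBCL2 array. It was at 6.89, 6.66 and 6.73 in AML post MDS against 6.96, 6.90 and 6.98 in MRP8hBCL2, a difference of −0.18, with every AML post MDS array below, a difference that was not tested on its own. The difference between the models was 0.99 by the limma contrast and did not pass after adjustment over all genes (adjusted p = 0.396), though its unadjusted p was under 0.05.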

How the results depend on the processing

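The 67 genes past the threshold in HR-MDS against tethBCL2 became 106 with each array centred on its median, 115 without the genes of lowest mean (a share of 0.25), 270 when only the 6 arrays were fitted, 777 with array weights, 13 over all probe sets of the table and 8 for a change beyond 1.5-fold. The methods' t-test gave 5 genes adjusted and 2465 unadjusted. Leaving out 1 array gave 6 to 187 genes. Of the 67, 54 still passed after quantile normalization, 60 after centring, 66 without the genes of lowest mean, 46 in the fit of 6 arrays, 64 with a trended and robust prior, 67 with array weights and 12 over all probe sets, and 0 changed sign in any of these settings. Without MRP8NRASD12 8157, an array that entered only the spread, 56 did. For the difference between models, 0 genes became 14 with array weights, 1 over all probe sets and 838 by the unadjusted t-test of that contrast, and leaving out 1 array gave 0 to 11. The sign turned for 3 named genes near 0. Cyba was at −0.0301 after centring (0.14 as reported). Lrrc41 was at −0.0239 after quantile normalization, −0.15 after centring, −0.00400 with array weights and −0.0573 to 0.11 with 1 array left out (0.02 as reported). Ly6e was at 0.0512 after quantile normalization (−0.07 as reported). The cause of these changes was not tested. No paired analysis was possible because mice of different groups share no number.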
